A study of Homo sapiens with 4 samples.

Results

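The genes described here are those of the proteasome, taken as every gene whose symbol begins with PSMA, PSMB, PSMC, PSMD, PSME, PSMF or PSMG and which had an array probe listed under an mRNA accession. The rule uses the symbol stem and no measured value of a gene. There were 50 such genes among 18191 genes with an mRNA probe, read by 68 probes, and 48 of them were kept among the 11586 genes that both arrays of 1 or the other group measured above background. The other 2, the testis subunit PSMA8 and the thymus subunit PSMB11, were detected on 0 of 4 arrays. PSMC3IP and PSME3IP1 carry the stem but are no proteasome subunits, and are named as such. The arrays compared RNA recovered with an antibody to TIA1 (TIA1 RIP, 2 arrays) with total RNA (2 arrays) of KYSE180, an established cell line of esophageal squamous cell carcinoma, and addressed which mRNAs are bound by TIA1 in these cells. No group carried a genetic change, a drug or a time point. Per the methods, the immunoprecipitates came from cytoplasmic lysates, precipitated with a rabbit antibody on protein A beads. The labels do not say whether the total RNA was cytoplasmic or from whole cells, nor whether arrays of a group came from separate cultures, so the spread between arrays may be technical. It is 1 cell line, and immunoprecipitates with IgG were not analysed here.

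TIA1 is an RNA-binding protein that favours U-rich stretches, often in the 3′ untranslated region (3′ UTR), and that can hold back translation of the mRNAs it binds. The proteasome degrades proteins marked with ubiquitin. Its 20S core particle is a barrel of outer alpha rings (PSMA genes), which gate the entrance, and inner beta rings (PSMB genes), which hold the proteolytic sites. The 19S regulatory particle (PSMC and PSMD genes) caps the barrel. Its base of ATPases unfolds the substrate, and its lid removes the ubiquitin chain. Other members activate or inhibit the core (PSME and PSMF genes), or are chaperones that assemble either particle (PSMG genes and a few PSMD genes).

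Since U-rich stretches are what TIA1 is known to bind, the 30 bases richest in U of the 3′ UTR are shown for some members. These are the 3 with the highest ratios (PSME3, PSMA3, PSMC6), the 3 with the lowest (PSMB3, PSMD2, PSMB10), and PSMD5 and PSMB7. The TIA1 RIP arrays of PSMD5 and PSMB7 did not overlap with total RNA. That did not single them out, as 5 members were above both total RNA arrays (20.9% of all genes) and 19 below both (20.4%). Highest and lowest are taken over the members detected on all 4 arrays. They come from the GENCODE transcript model on GRCh37, the build in the file headers, read 5′ to 3′ on the transcript strand, with runs of at least 5 U (UUUUU) in capitals. Which 3′ UTR the cells used is not known from these arrays.
PSME3, chr17:40993924-40993953, plus strand: uuuauguuuucuuccguuugauaauuaguu
PSMA3, chr14:58738691-58738720, plus strand: uguccaauuuucauuaaaUUUUUgucuuau
PSMC6, chr14:53194633-53194662, plus strand: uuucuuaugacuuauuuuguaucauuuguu
PSMD5, chr9:123579481-123579510, minus strand: cuaucUUUUUUUUUcUUUUUgguccUUUUU
PSMB7, chr9:127115782-127115811, minus strand: ucauguggcuaguguuugccgaaugaaacu
PSMB3, chr17:36920426-36920455, plus strand: uucccagagcccacUUUUUUUUcUUUUUUU
PSMD2, chr3:184026773-184026802, plus strand: uugucgccuccugcucuuuuguuacugagu
PSMB10, chr16:67968431-67968460, minus strand: ugaggcuuagagcuuggaacaagggggaau
The stretch of PSMB10, the member with the lowest ratio, held 6 U, and 95.0% of 3′ UTRs of like length had a stretch with as many or more. The stretch of PSMB3, another of the lowest members, held 17 U in a 3′ UTR of 58 nucleotides, and 5.54% of 3′ UTRs of like length held as many or more. PSME3, whose ratio was the highest among the members detected on all 4 arrays, held 18 U in its richest stretch, where 82.9% of 3′ UTRs of like length held as many or more, and 9 overlapping matches to UUUUU in 2182 nucleotides. The other members above both total RNA arrays, PSMD5, PSMD10, PSMG2 and PSMC3IP, held 22, 19, 15 and 19 U in the richest stretch. Members below both held from 6 U (PSMB10) to 21 U (PSME3IP1), with 10 in PSMB7. Across the 48 members, 68.8% had a UUUUU on the transcript strand of the 3′ UTR, against 78.8% of 11382 genes, with 52.9% in the core and 70.6% in the regulatory particle. The median 3′ UTR had 187 nucleotides in the core, 384 in the regulatory particle and 1181 over all genes, and a shorter 3′ UTR has fewer places for a match. A match is a run of letters and was not shown here to be a binding site.

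The 4 arrays lay on 1 slide and were read in 1 scan. The processed signal had a 75th percentile of 1514 on TIA1 RIP 1, 1271 on TIA1 RIP 2, 714 on total RNA 1 and 69.9 on total RNA 2. Between 45.8% and 48.4% of spots were well above background on the first 3 of these, and 32.2% on total RNA 2. Total RNA 1 correlated with TIA1 RIP 1 at r = 0.94 across genes and with total RNA 2 at r = 0.73, so that total RNA 2 stood apart from the other 3. The comparisons over all members and the medians of the main roles are therefore also given against each total RNA array alone. Of 11 markers of squamous epithelium taken for this check, 10 were detected on all 4 arrays, and DSC3 on all but total RNA 2. Of 9 markers of leukocytes, fibroblasts and endothelium, 2 (PTPRC and CD14) were detected on all 4, with scaled log2 signals between -3.37 and 1.24.

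Against total RNA 1, most proteasome genes stood lower in the TIA1 immunoprecipitates. The log2 ratio (mean of both TIA1 RIP arrays minus total RNA 1, each array scaled by its 75th percentile) was below 0 for 40 of 48 members, against 46.7% of all 11586 genes, and its median was -0.51 for the members and 0.074 for all genes. Both TIA1 RIP arrays lay below total RNA 1 for 32 members (35.2% of all genes), and both lay above it for 5 (41.2% of all genes). TIA1 RIP 2 lay below total RNA 1 for 42 members and TIA1 RIP 1 for 33. The ratio sets RNA recovered with the antibody against total RNA of the same cell line, both from many cells. It therefore describes recovery relative to total RNA, not a difference in expression, and how recovery varied between cells cannot be told. Against total RNA 2 the members were spread to both sides. Their log2 ratio was below 0 for 26 of 48, against 51.9% of all genes, with a median of -0.12 for the members and -0.10 for all genes. Both TIA1 RIP arrays lay below total RNA 2 for 21 members (46.5% of all genes) and above it for 20 (42.7%).

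**Figure D1:**
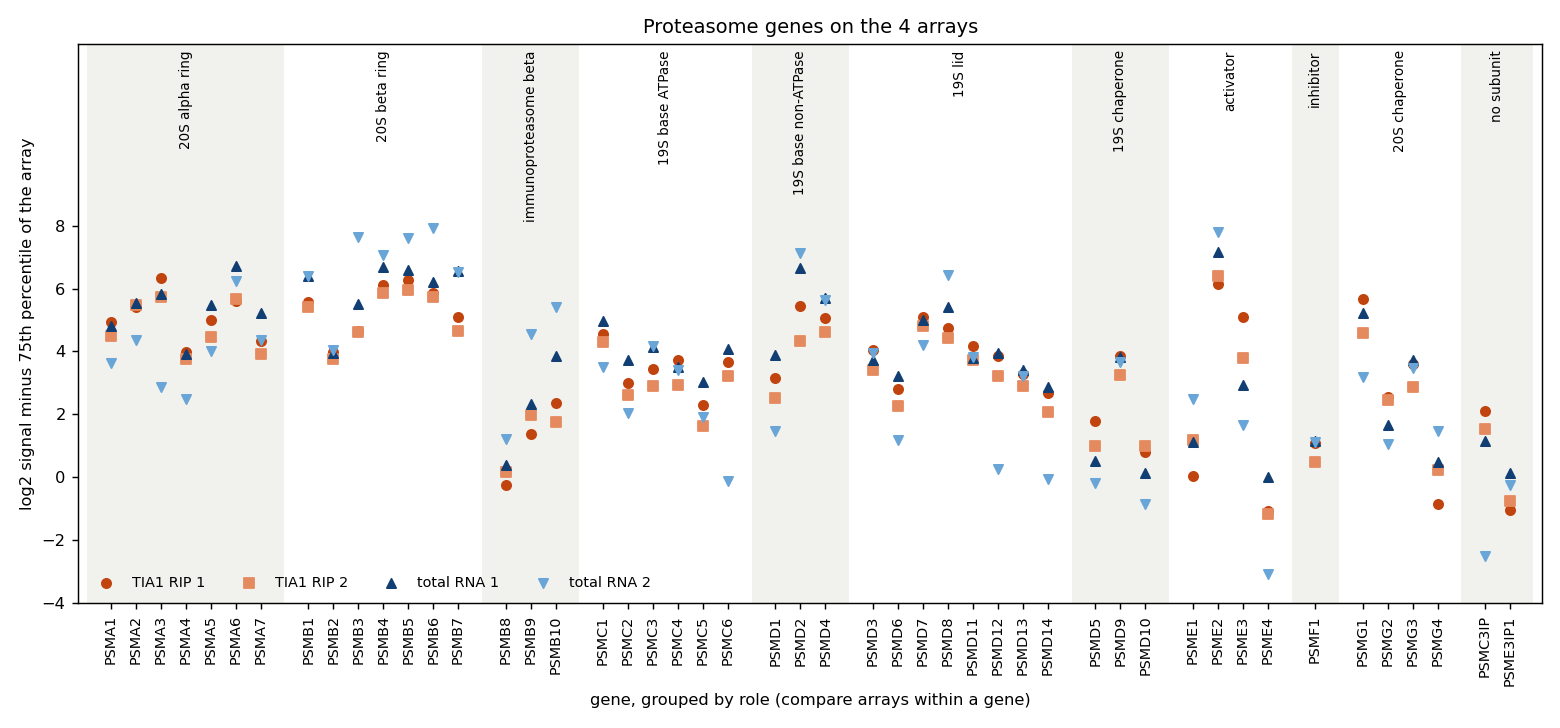
Log2 signal minus the 75th percentile of the array (vertical axis) of the 48 kept proteasome genes, 1 column of points a gene, grouped by role, with a marker for each of the 4 arrays. Arrays are to be compared within a gene. Both TIA1 RIP markers sit above both total RNA markers for PSME3, PSMD5, PSMD10, PSMG2 and PSMC3IP (20.9% of all genes). They sit below both for 6 of 7 beta ring genes and all 3 immunoproteasome genes (20.4% of all genes).

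No member passed an adjusted p of 0.05 in either direction when the 2 groups were fitted together with limma, and neither did any other gene (0.0% of 11586). The lowest adjusted p among the members was 0.769 from limma. At an unadjusted p under 0.05, limma gave 1 member higher (PSME3, background 1.25%) and 2 lower (PSMB10 and PSMD2, background 2.87%). The median log2 ratio over both total RNA arrays was -0.15 for the members and 0.036 for all genes, and 29 members lay below 0 (48.8% of all genes). In all 4 pairs of a TIA1 RIP and a total RNA array, 3 members (PSMB7, PSMB10 and PSMD2) were over 2-fold below the median of all genes (background 4.52%) and none was over 2-fold above it (background 2.04%). The members' median relative to that of all genes, -0.19, turned to 0.25 with normexp background correction. Against total RNA 1 alone it was -0.58, and -0.58 and -0.51 with normexp correction and quantile normalization. Against total RNA 2 alone it was -0.012, and 0.86 and 0.058 with the same settings. The count of 0 rested on total RNA 1: without it, with total RNA 2 alone for its group and assumed to vary like the TIA1 RIP arrays, limma called 7 members higher (16.1% of all genes) and 5 lower (14.5%), and without any other single array it called none.

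Of the 20S core, 17 genes were kept. Both TIA1 RIP arrays lay below both total RNA arrays for 11 of them (20.4% of all genes) and above both for none (20.9% of all genes). With normexp correction they lay below both for 7, and with quantile normalization below both for 5 and above both for 2. The share of all genes so placed was not counted under these settings. Such counts, here and below, therefore have no share beside them. Within the core, the genes of the alpha ring and of the beta ring stood differently. The 7 alpha genes had a median log2 ratio of -0.11 against total RNA 1 and 1.07 against total RNA 2. The 7 beta genes had medians of -0.71 and -1.49, and each of the 7 was below 0 against both arrays. Relative to all genes, the median against total RNA 2 was -1.39 for the beta ring, and shrank to -0.36 with normexp correction and -0.17 with quantile normalization, and that of the core turned from -0.80 to 0.22 and 0.048. For the alpha ring it was 1.18, and 2.07 and 1.36 with these settings. The genes of a ring are not replicates, so these medians are a description.

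In the alpha ring, both TIA1 RIP arrays lay below both total RNA arrays for 2 of 7 genes, PSMA6 and PSMA7 (20.4% of all genes). The groups of PSMA7 lay only 0.017 log2 units apart. With normexp correction the groups separated for none of the 7. With quantile normalization none was below both total RNA arrays, and 2 (PSMA2 and PSMA3) were above both. PSMA6 had scaled log2 signals (75th percentile subtracted, as for all values below) of 5.61 and 5.66 in TIA1 RIP 1 and 2 and of 6.72 and 6.26 in total RNA 1 and 2. PSMA3 had the highest ratio in the ring. It stood at 6.34 and 5.74 in TIA1 RIP 1 and 2, at 5.85 in total RNA 1 and at 2.88 in total RNA 2. The TIA1 RIP arrays lay on either side of total RNA 1, and only total RNA 2 was low. The log2 ratio of 1.68 (SE 1.11, adjusted p = 0.769 from limma) became 0.20 against total RNA 1 alone. PSMA1, PSMA2, PSMA4 and PSMA5 likewise had their lowest signal on total RNA 2.

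In the beta ring, both TIA1 RIP arrays lay below both total RNA arrays for 6 of 7 genes (20.4% of all genes). PSMB2 was the exception, with a log2 ratio of -0.13. With normexp background correction the groups separated for 4 of the 7, and with quantile normalization for 2. PSMB7, which carries the trypsin-like site, stood at 5.11 and 4.66 in TIA1 RIP 1 and 2 and at 6.56 and 6.52 in total RNA 1 and 2. On this scale the total RNA arrays nearly coincided, and each TIA1 RIP array lay more than 1 log2 unit below them. The total RNA arrays stood apart under other settings, at 6.41 and 5.45 with normexp correction and at 15.73 and 14.73 on the scale of quantile normalization, and TIA1 RIP 1 then lay less than 1 log2 unit below total RNA 2. The log2 ratio was -1.65 (SE 0.76, adjusted p = 0.769 from limma), and it was -1.67 and -1.64 against total RNA 1 and 2. PSMB5, which carries the chymotrypsin-like site, stood at 6.29 and 5.97 in TIA1 RIP and at 6.58 and 7.62 in total RNA. Its log2 ratio of -0.97 (SE 0.80) was -0.45 against total RNA 1 and turned to 0.19 with quantile normalization. PSMB6, which carries the caspase-like site, stood at 5.85 and 5.73 in TIA1 RIP and at 6.22 and 7.94 in total RNA, a log2 ratio of -1.29 (SE 0.88) that was -0.43 against total RNA 1 and -2.16 against total RNA 2. PSMB3, a structural subunit, stood at 4.65 and 4.63 in TIA1 RIP, at 5.51 in total RNA 1 and at 7.66 in total RNA 2, so that its ratio was -0.87 against the first and -3.02 against the second. The remaining genes, PSMB1 and PSMB4, had log2 ratios of -0.91 and -0.89.

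PSMB8, PSMB9 and PSMB10 replace PSMB5, PSMB6 and PSMB7 in the immunoproteasome, the form that shapes peptides for antigen presentation. Both TIA1 RIP arrays lay below both total RNA arrays for all 3 (20.4% of all genes). This held with normexp correction and with quantile normalization, where the share of all genes was not counted. PSMB10 stood at 2.35 and 1.76 in TIA1 RIP 1 and 2, at 3.86 in total RNA 1 and at 5.43 in total RNA 2. Each total RNA array lay above each TIA1 RIP array by more than 1 log2 unit, and the log2 ratio of -2.58 (SE 0.88, adjusted p = 0.769 from limma) was the lowest of all members, and 1.71% of all genes had a lower one. PSMB9 stood at 1.37 and 1.97 in TIA1 RIP and at 2.32 and 4.55 in total RNA, a log2 ratio of -1.76 (SE 0.97) that was -0.65 and -2.88 against total RNA 1 and 2. PSMB8 stood at -0.25 and 0.17 in TIA1 RIP and at 0.38 and 1.21 in total RNA, a log2 ratio of -0.84 (SE 0.79). The gaps between the groups were narrower for these than for PSMB10, as total RNA 1 lay 0.35 above the nearest TIA1 RIP array for PSMB9 and 0.21 for PSMB8.

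Of the 19S regulatory particle, 17 genes were kept. Both TIA1 RIP arrays lay below both total RNA arrays for 4 of them (PSMC3, PSMD2, PSMD4 and PSMD8), near the 20.4% of all genes, and above both for none (20.9% of all genes). With normexp correction 2 were below both and none above. With quantile normalization 2 were below both and 2 (PSMD7 and PSMD11) above both. The 6 ATPases of the base were all below 0 against total RNA 1, with log2 ratios from -1.07 to -0.17, and 4 of 6 were above 0 against total RNA 2. PSMC6 had the highest ratio of the base. It stood at 3.68 and 3.22 in TIA1 RIP 1 and 2, at 4.08 in total RNA 1 and at -0.12 in total RNA 2. TIA1 RIP was below the one total RNA array and far above the other, and the log2 ratio of 1.47 (SE 1.37) turned to -0.63 without total RNA 2. PSMD2, a scaffold of the base that receives ubiquitin-bearing proteins, stood at 5.46 and 4.35 in TIA1 RIP and at 6.66 and 7.12 in total RNA. Its log2 ratio was -1.99 (SE 0.82, adjusted p = 0.769 from limma), and its probes had ratios of -2.10 and -1.88. With quantile normalization the groups of PSMD2 overlapped. The ubiquitin receptor PSMD4 had a log2 ratio of -0.82, close to its values against either total RNA array. PSMD1, the other scaffold of the base, had -1.05 against total RNA 1 and 1.38 against total RNA 2, which averaged to 0.16.

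In the lid, 6 of 8 genes were below 0 against total RNA 1, from -0.84 (PSMD8) to 0.16 (PSMD11), and 3 of 8 were below 0 against total RNA 2. PSMD14, the subunit that cuts off the ubiquitin chain, had log2 ratios of -0.49 against total RNA 1 and 2.43 against total RNA 2, where 1 of its probes was not well above background. PSMD12 showed the same split, with -0.42 and 3.29.

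**Figure D2:**
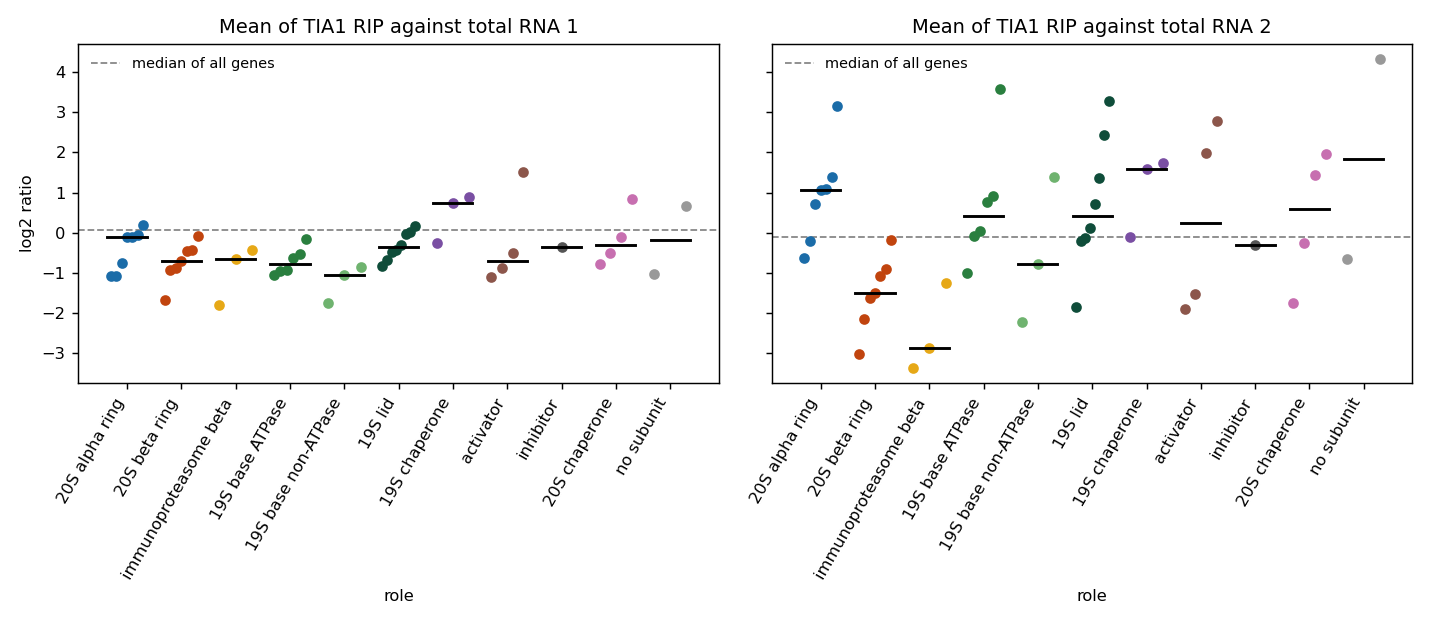
Log2 ratio of the mean of both TIA1 RIP arrays over total RNA 1 (left) and over total RNA 2 (right) for the 48 kept genes, 1 point a gene, by role, with black bars for the median of a role and a dashed line for the median of all 11586 genes. Against total RNA 1 the medians of all roles but the 19S assembly chaperones lie below the line; against total RNA 2 the alpha ring lies above it, at 1.07, and the beta ring and immunoproteasome genes lie below it, at -1.49 and -2.88.

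The members in which both TIA1 RIP arrays exceeded both total RNA arrays were 5 of 48, against 20.9% of all genes. They were the activator PSME3, the assembly chaperones PSMD5, PSMD10 and PSMG2, and PSMC3IP, and the same 5 were so placed with normexp correction. Quantile normalization gave these and 4 others (PSMA2, PSMA3, PSMD7 and PSMD11). PSMC3IP passed the detection filter through the TIA1 RIP arrays alone, where it was high. PSME3 encodes the nuclear activator of the core, which acts without ubiquitin. It stood at 5.11 and 3.79 in TIA1 RIP 1 and 2, at 2.95 in total RNA 1 and at 1.66 in total RNA 2. The TIA1 RIP arrays differed by 1.32 log2 units and the total RNA arrays by 1.29, and the nearest arrays of the groups lay 0.85 apart. The log2 ratio was 2.15 (SE 0.90, adjusted p = 0.769 from limma), higher than that of 97.0% of all genes, and it was 1.51 and 2.79 against total RNA 1 and 2.

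PSMD5, PSMD10 and PSMG2 were singled out after their values were seen. PSMD5, a chaperone of the 19S base, stood at 1.80 and 1.00 in TIA1 RIP and at 0.51 and -0.18 in total RNA, a log2 ratio of 1.23 (SE 0.80). Its probes had ratios of 2.03 and 0.43. In the second probe the groups overlapped, with TIA1 RIP 2 at -0.75 and total RNA 1 at -0.47. PSMD10 (gankyrin), another chaperone of the base, stood at 0.79 and 0.98 in TIA1 RIP and at 0.14 and -0.86 in total RNA. Ratios of its probes were 1.46 and 1.02. The second was not well above background on total RNA 2, so it passed the filter through TIA1 RIP alone. With all probes of the symbol averaged, the log2 ratio of PSMD10, 1.24 (SE 0.80), turned to -0.18. PSMG2, which starts assembly of the alpha ring with PSMG1, stood at 2.54 and 2.46 in TIA1 RIP and at 1.65 and 1.05 in total RNA, a log2 ratio of 1.15 (SE 0.77). Each of the 4 arrays of PSMG2 was well above background, and the TIA1 RIP arrays differed by 0.080. With the GC trend removed, the log2 ratios of PSMD5, PSMD10 and PSMG2 were 0.32, 0.29 and 0.29, while that of PSME3 was 1.98. PSMG1 overlapped, at 5.67 and 4.59 against 5.24 and 3.18. PSMC3IP, a recombination factor, was not well above background on total RNA 2, so the filter kept it through TIA1 RIP alone. Its log2 ratio was 0.66 against total RNA 1.

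The other activators, the inhibitor and the remaining chaperones had log2 ratios below 0 against total RNA 1. PSME1 and PSME2 form the activator that interferon induces, and had log2 ratios of -1.20 (SE 0.90) and -1.21 (SE 0.77), opposite in sign to that of PSME3. Against total RNA 1 they were -0.51 and -0.89, and against total RNA 2 -1.89 and -1.52. PSME2 stood at 6.14 and 6.42 in TIA1 RIP and at 7.17 and 7.80 in total RNA, without overlap. The inhibitor PSMF1 stood between 0.47 and 1.14 on all 4 arrays. PSME4, the activator PA200, was not well above background on total RNA 2 with either of its probes, and these had ratios of 1.17 and -0.31. Its scaled log2 signals were -1.07 and -1.18 in TIA1 RIP and -0.0087 in total RNA 1. The chaperones PSMD9, PSMG3 and PSMG4 had log2 ratios of -0.18, -0.38 and -1.26 over both total RNA arrays, with 1 of the probes of PSMG4 not well above background on TIA1 RIP 1. PSME3IP1 had a log2 ratio of -0.84.

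The core and the regulatory particle differed by -0.77 in their median log2 ratio (-0.86 against -0.089). The gap depended on the total RNA array: against total RNA 1 it was -0.028 (-0.65 against -0.63), and against total RNA 2 it was -1.02 (-0.90 against 0.12). Over the 4 pairs of a TIA1 RIP and a total RNA array it was -0.17 and 0.24 with total RNA 1 and -1.22 and -0.86 with total RNA 2. From total RNA 1 to total RNA 2, the median signal of the core differed by -0.024 and that of the regulatory particle by -0.77, a difference of 0.74 between the particles within total RNA alone. Without the 3 immunoproteasome genes the core median was -0.76. The median of TIA1 RIP 2 minus TIA1 RIP 1 was -0.24 in the core and -0.52 in the regulatory particle, while the median over all genes was 0.0034.

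**Figure D3:**
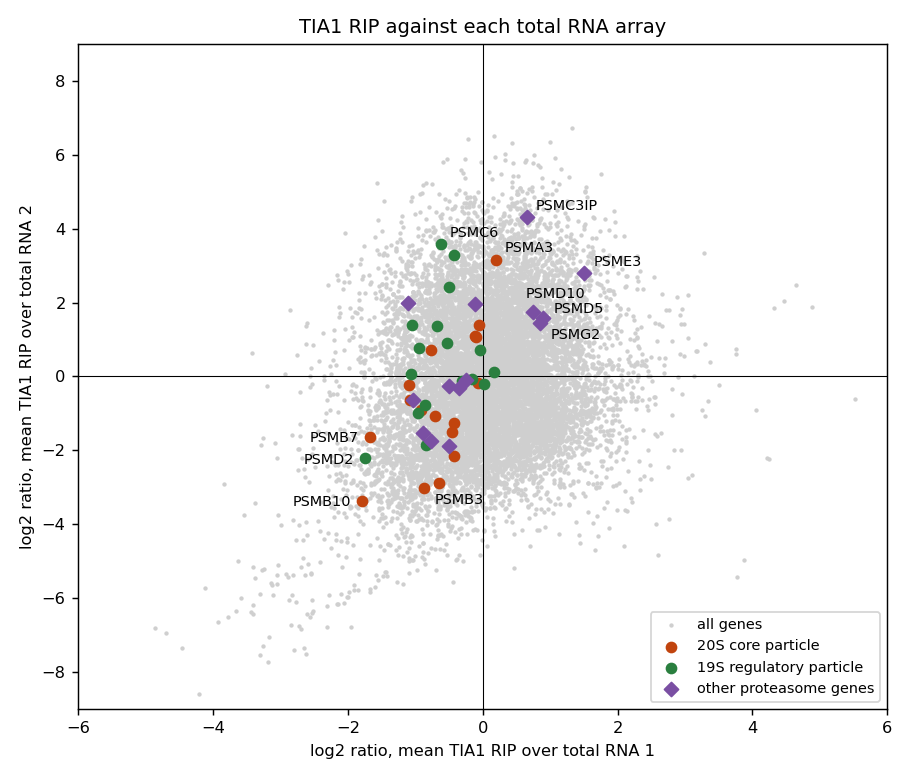
Log2 ratio of the mean of both TIA1 RIP arrays over total RNA 1 (horizontal) and over total RNA 2 (vertical), with all 11586 genes in grey, the core in orange, the regulatory particle in green and other members as violet diamonds. The cloud of members lies left of 0 on the horizontal axis (40 of 48) and spans both sides of 0 on the vertical axis (26 of 48 below); both axes share the TIA1 RIP arrays.

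The difference between the total RNA arrays followed GC content. The median GC content of the transcripts was 41.4% in the alpha ring, 52.0% in the beta ring and 54.9% in the immunoproteasome genes. The median difference of total RNA 2 minus total RNA 1 was -1.20, 0.37 and 1.57 in the same order. Across the 48 members, GC content and this difference had a Pearson r of 0.72 and a Spearman rho of 0.76, and across 11460 genes an r of 0.70. GC content and the ratio against total RNA 1 had an r of -0.33 across members and -0.060 across genes. Against total RNA 2 these were -0.73 and -0.73. These are descriptions across genes read on the same arrays, and genes are no independent replicates. The part of GC content in the ratios was not tested beyond a fit with the GC trend removed. In that fit the medians against total RNA 2, relative to all genes, were -0.57 for the alpha ring and -1.21 for the beta ring, where they had been 1.18 and -1.39. Both TIA1 RIP arrays lay below both total RNA arrays in it for all 3 immunoproteasome genes, 6 of 7 beta ring genes and 4 of 7 alpha ring genes. The same held for 13 of 17 core genes, 3 of 17 genes of the regulatory particle and 20 of all 48 members. PSME3 and PSMC3IP alone of the members were above both total RNA arrays. The share of all genes so placed was not counted in this fit, so whether these counts are unusual cannot be told. The length of the 3′ UTR and the ratio against total RNA 1 had a Spearman rho of 0.48 across the members and 0.078 across all genes, and a Pearson r of 0.25 and 0.0055.

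**Figure D4:**
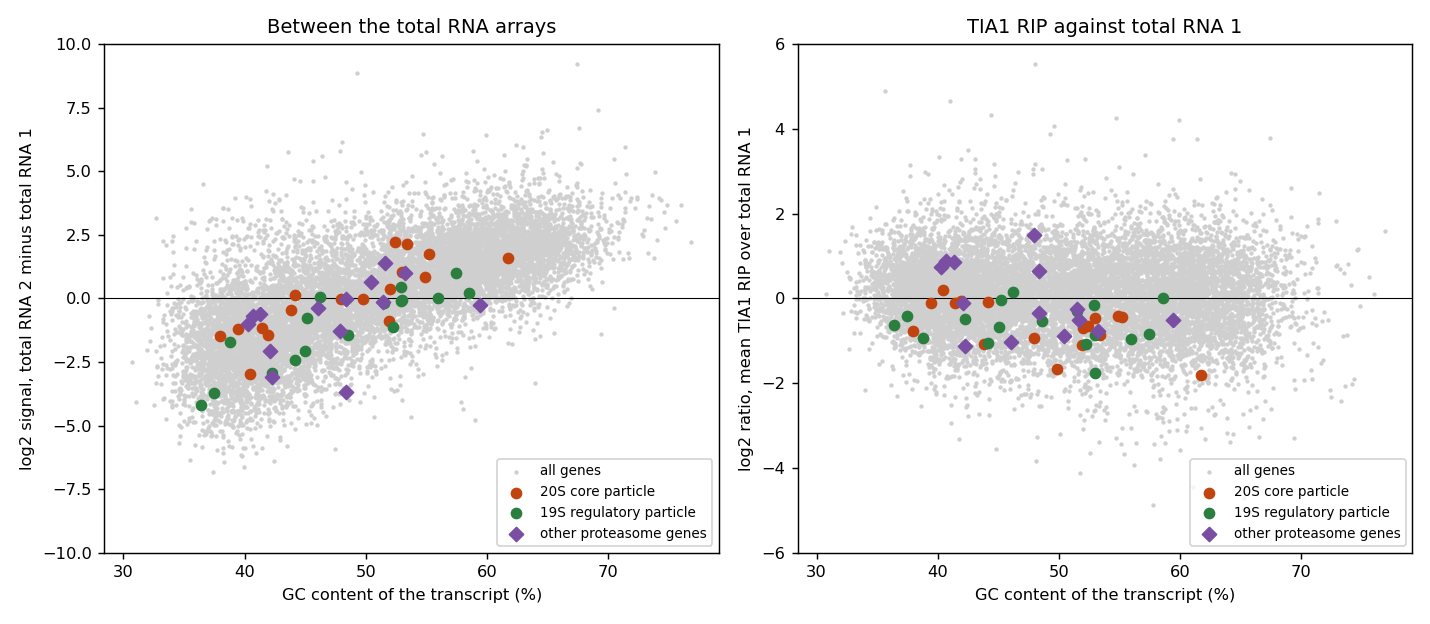
GC content of the transcript in percent (horizontal axes) against total RNA 2 minus total RNA 1 (left, log2 signal) and against the mean of both TIA1 RIP arrays over total RNA 1 (right, log2 ratio), with all genes in grey and the members in colour. The members run along the slope of all genes on the left (r of 0.72 for 48 members and 0.70 for all genes), while on the right their r is -0.33 and that of all genes -0.060.

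The study judged enrichment against GAPDH, which it describes as abundant and no target of TIA1. It listed mRNAs that differed from GAPDH by over 2.5-fold on the arrays and also in sequencing of the immunoprecipitated RNA. Only the arrays are used here, so the counts below do not apply its full criterion. GAPDH stood at 6.49 and 6.69 in TIA1 RIP 1 and 2, at 7.67 in total RNA 1 and at 9.63 in total RNA 2, a log2 ratio of -2.06 (SE 0.92). A gene past 2.5-fold over GAPDH therefore needed a log2 ratio above -0.74 on the scale used above, or above 0.24 against total RNA 1 and -1.72 against total RNA 2. On the means 30 of 48 members were past it, against 74.1% of all genes, and no member lay 2.5-fold below GAPDH (0.76% of all genes). Those past it included 6 of 7 alpha genes, 1 of 7 beta genes, none of 3 immunoproteasome genes and 13 of 17 genes of the regulatory particle. Against total RNA 1 it was 5 of 48 (42.2% of all genes) and against total RNA 2 it was 40 (79.4%). In all 4 pairs it was 5 (26.2%), namely PSME3, PSMD5, PSMD10, PSMG2 and PSMC3IP. Of these, PSMC3IP had passed the detection filter through the TIA1 RIP arrays alone. The lowest adjusted p relative to GAPDH among the members was 0.235 from limma, with none called (0.0% of genes), and PSMD5, PSMD10, PSMG2 and PSME3 had an unadjusted p under 0.05 (16.9% of genes higher). Without total RNA 1, 39 members were called higher than GAPDH, against 75.3% of all genes.

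Of 23 other genes of the pathway without the symbol stem, 20 were kept. They include shuttles, the segregase VCP, assembly factors and regulators of proteasome gene expression. None was called by limma. Both TIA1 RIP arrays lay below both total RNA arrays for 6 of the 20 (20.4% of all genes) and above both for 4 (20.9% of all genes). VCP, which extracts ubiquitinated proteins from complexes, stood at 4.73 and 4.39 in TIA1 RIP and at 5.84 and 6.72 in total RNA, a log2 ratio of -1.72 (SE 0.79). SEM1, a small subunit of the lid, stood at 6.46 and 6.91 in TIA1 RIP and at 6.06 and 5.33 in total RNA, a log2 ratio of 0.99 (SE 0.78). Their median ratio was 0.13, with -0.11 against total RNA 1, where 10 of 20 were below 0.

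Probe sequences were not used here, so which transcripts a probe can bind was not tested. Pseudogenes are named after several members, with 13 after PSMC1, 6 after PSME2 and 4 after PSMA6, and signal of such copies cannot be told apart from that of the gene.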

How the data were processed

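RNA of KYSE180 cells was measured on 4 single-colour Agilent arrays, TIA1 RIP and total RNA with 2 each, grouped by the labels. The authors scanned them with Agilent Feature Extraction 10.7.1.1, and the deposited files hold intensity on a linear scale for each spot (background-subtracted processed signal, raw medians) and other columns with quality flags, not normalized between arrays. The methods name GeneSpring and no test.

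Here uneven and deviant spots were left out of 58717 spots an array, the processed signal was converted to log2, the 75th percentile of the array was subtracted, and spots of a probe were averaged. Probes with at least a share of 0.5 of spots well above background on both arrays of a group were kept, and those of a symbol averaged. Symbols came from RefSeq mRNA accessions (97.3% of 25219 probes matched), coordinates, GC content and 3′ UTRs from GENCODE on GRCh37. limma 3.58.1 in R 4.3.3 (lmFit, eBayes, Benjamini-Hochberg over all genes, threshold 0.05) was run on this scale and relative to GAPDH, after a check on simulated data. Plots used matplotlib 3.10.9. Alternatives covered background correction, scaling, detection, probe choice, reference gene, fold, GC trend, replicate block and each array left out. Values in full are given for the catalytic subunits and their immunoproteasome counterparts, the 3 highest and 3 lowest members detected on all arrays, members over 2-fold from the median of all genes in all 4 pairs, members called by limma, members whose probes have ratios of opposite sign over 1 log2 unit apart, and members that only 1 group detected. The members, lists and rules were chosen with earlier results of these data known. With 2 arrays a group, their number limits the precision. A single gene of the wider pathway list enters its counts and median but is not reported by name here.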

Additional observations from a re-analysis of the deposited data

How the results depend on the processing

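Under other settings, 180 of 194 log2 ratios of single genes kept their sign and their side of the threshold, 8 passed the threshold, all without total RNA 1, and 6 turned sign. Of 80 counts and medians over the members, 63 stayed within 1.5 times the count or 1 SD between array pairs. The count of members below 0 against total RNA 1 ranged from 32 (quantile normalization) to 42 (without TIA1 RIP 1), against 40. No member was called on the 75th percentile scale with any setting but that without total RNA 1, where the count was 12, so that leaving out 1 array gave 0 to 12. Relative to GAPDH the count was 0 to 39 with 1 array left out, 39 being without total RNA 1, and 16 with the GC trend removed and the replicate block (54.0% of all genes). The count past 2.5-fold over GAPDH was 5 to 40 with 1 array left out, 5 being without total RNA 2 (42.2% of all genes). It was 5 with GAPDH replaced by the median gene, where 1431 of all 11586 genes were past 2.5-fold. The members' median relative to all genes was -0.19. It turned to 0.25 with normexp background correction, 0.11 with probes detected on all 4 arrays and 0.12 with no filter on dim probes, was -0.42 with the GC trend removed, and ranged from -0.58 to 0.030 with 1 array left out, the last without TIA1 RIP 2. The core minus the regulatory particle was -0.24 with quantile normalization and -1.09 to -0.028 with 1 array left out. Among the array pairs, chosen after seeing the data, it was -0.17 for TIA1 RIP 1 and total RNA 1 and turned to 0.24 for TIA1 RIP 2 and total RNA 1. Of single genes, PSMB5 turned to 0.19 with quantile normalization, PSMC6 to -0.63 without total RNA 2 (3.57 without total RNA 1), and PSMD10 to -0.18 with all probes of the symbol. PSME4 turned to -0.43 with normexp correction, -0.34 with the GC trend removed and -1.12 without total RNA 2 (1.98 without total RNA 1). With the GC trend removed, PSMC6 went from 1.47 to 0.26 and PSMA3 from 1.68 to 0.74. PSME3 ranged from 1.49 to 2.81, PSMB10 from -3.37 to -1.69, PSMB7 from -1.88 to -0.84 and PSMD2 from -2.55 to -0.96 over all settings. The cause of these shifts was not tested. The labels share replicate numbers only, and same-numbered arrays deviated together across genes (r = 0.46). With the replicate block 0 members were called, as without it, while 34 genes were higher and 111 lower. The block for slide and scan was not run, as all arrays share both. No group has over 2 arrays, so no array could be tested as an outlier within its group.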
